A study of Rattus norvegicus with 6 samples.

Results

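The genes described here are 36 genes of autophagy and of mitophagy, the autophagy of mitochondria, listed by symbol and grouped by the step at which their proteins act. They were matched to the array annotation through probe sets (groups of short probes for a transcript) that name exactly 1 gene, and a gene with several was represented by the brightest on average. Values were obtained for 33 of the 36 members, among 14217 genes named on the array, and all 33 were bright enough to be tested, among 9928 genes. Map1lc3b, Gabarapl2 and Nbr1 were found only on probe sets that also name another gene, and no value is given for them. The RNA came from CD11b+CD163+ cells, the perivascular and meningeal macrophages of the brain (border-associated macrophages, BAMs), which were sorted by flow cytometry from the right hemisphere of adult male Sprague-Dawley rats. The ischemia group comprised rats 64, 65 and 66, in which a filament closed the right middle cerebral artery for 1 h and reperfusion lasted 16 h. The control group comprised the non-ischemic rats 63, 68 and 69, for which the sources used here mention no sham operation. Each rat gave 1 Affymetrix rat genome array, and the values are log2 values made with RMA, which also equalizes the distributions of the arrays.

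Autophagy encloses cytoplasm in a growing double membrane, the autophagosome, and delivers it to the lysosome for breakdown. A kinase complex around ULK1 starts the process, a lipid kinase complex around Beclin 1 marks the membrane with phosphatidylinositol 3-phosphate (PI3P), and conjugation enzymes attach proteins of the ATG8 family (LC3 and GABARAP) to it, to which cargo receptors such as p62 bind. Damaged mitochondria are selected by the kinase PINK1 or by receptors in their outer membrane. In macrophages the pathway also serves the removal of microbes and the restraint of inflammation.

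After ischemia, 4 of the 33 members were lower and none was higher. The genes that fell were Ulk1 and Ulk2, the kinases that start autophagy, Atg14, the subunit that directs the Beclin 1 complex to autophagosome formation, and Pink1, the kinase that tags damaged mitochondria. They were 2.10 to 3.32-fold lower in ischemic than in control rats. The remaining 29 members did not pass the test, 15 with a log2 fold change (ischemia minus control) above 0 and 14 below 0. A gene was called at an adjusted p under 0.01 from limma's moderated test over the 9928 genes. By this rule 16.8% of all genes tested were called higher and 5.99% lower, 22.8% in all, whereas 12.1% of the members were called, all of them lower. At an unadjusted p under 0.05, 4 members were higher and 10 lower, a threshold that 32.3% of all genes passed as higher and 18.2% as lower. At an adjusted p under 0.05, 3 members were higher and 6 lower, beside 27.4% and 13.9% of all genes. With a log2 fold change beyond 2 required as well, 2.22% of all genes but no member were called. The groups did not overlap for 14 of 33 members (42.4%), beside 55.6% of all genes tested, with 6 members higher after ischemia (35.7% of all genes) and 8 lower (19.9%). A log2 fold change above 0 was found for 45.5% of the members and 57.2% of all genes. The median log2 fold change was -0.10 over the members and 0.10 over all genes tested, and the members ranged from -1.73 to 0.79. As the cells were measured in bulk, less RNA per cell cannot be told apart from fewer cells that express a gene.

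**Figure D1:**
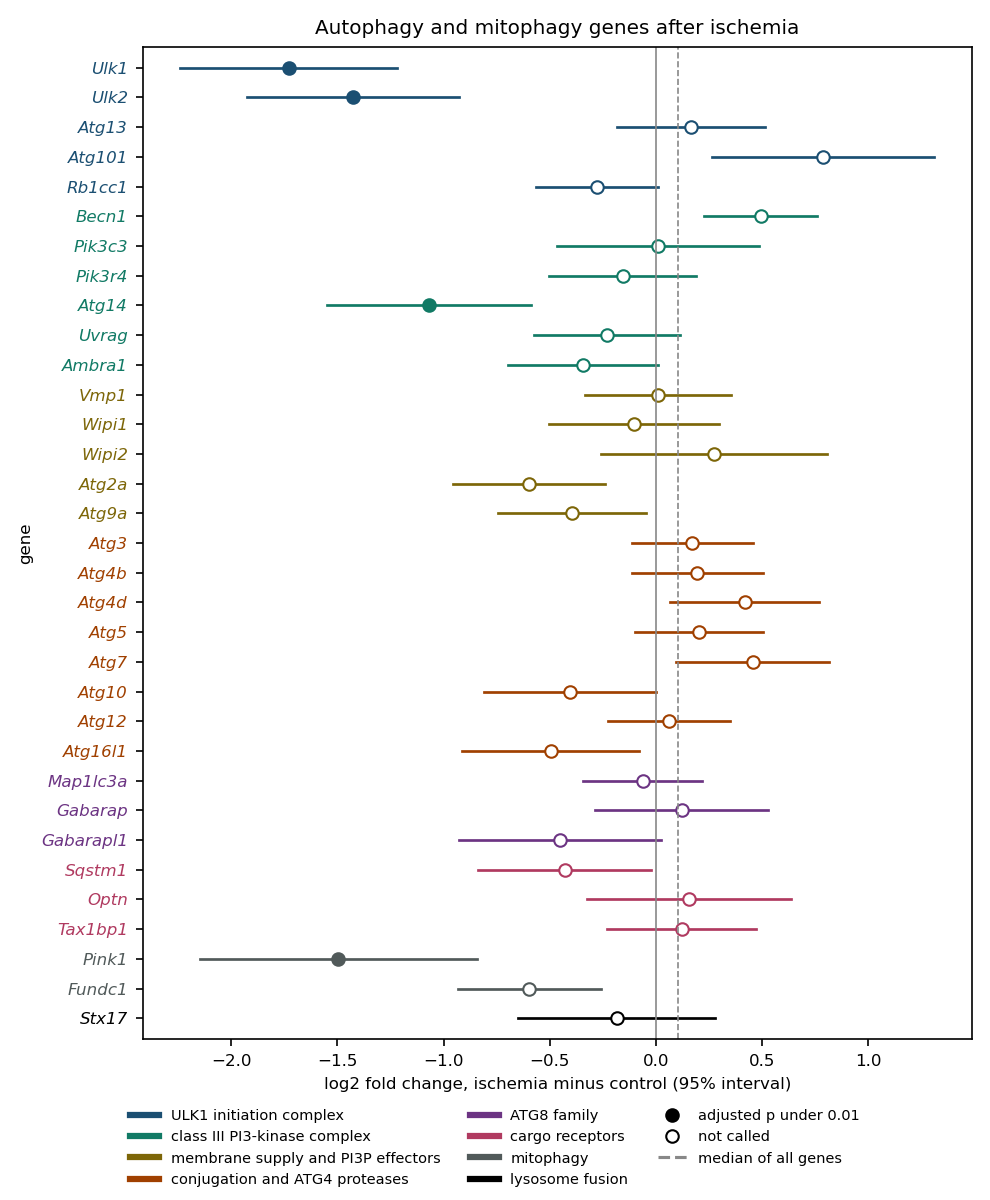
Log2 fold change (ischemia minus control, x axis) with its 95% interval for the 33 members with a value (y axis), coloured by role, with filled points for members called at an adjusted p under 0.01 and a dashed line at the median of all genes tested. The 4 filled points, Ulk1, Ulk2, Atg14 and Pink1, lie at -1.07 or below, and the other 29 members lie between -0.60 and 0.79.

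The uncalled members were bounded by the test. The 95% interval lay within 1 log2 unit of 0 for 28 of the 29, and within 0.5 for 6 of them, and the farthest bound was 1.31, for Atg101. The sign of the small differences followed the scaling of the arrays: 15 members were above 0 and 18 below in the deposited values, 10 and 23 after a repeated quantile normalization, and 3 and 30 when each array was centred on 42 cytosolic ribosomal protein genes. The median of all genes tested was 0.10, -0.01 and -0.32 under these scalings. The members' median lay 0.209 to 0.213 below it under each of them. Centring shifts all genes of an array alike, so it could hardly change this gap. In the deposited values without control rat 63, the members' median was -0.04 and that of all genes 0.05. Ribosomal centring turned the calls over all genes from 1664 higher and 595 lower to 397 higher and 1360 lower. The repeated quantile normalization gave 1291 and 1027. The 4 members called lower were called under all of these scalings. The ribosomal centring leaned on control rat 63, whose ribosomal protein genes averaged 12.58 against 13.23 and 13.25 in the other controls and 13.40 to 13.48 in ischemic rats. The difference it removes was 0.427 over all rats and 0.206 without rat 63. In a setting chosen after seeing the data, ribosomal centring without rat 63, 4 members were above 0 and 29 below, the members' median minus that of all genes (-0.15) was -0.0932, and Ulk1 and Ulk2 were called (adjusted p = 0.00555 and 0.00657) while Atg14 and Pink1 missed the threshold at an adjusted p of 0.0108 each.

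The highest value on the array was 13.85 in control rat 63 against 14.88 to 14.96 in the other rats. The 3′ minus 5′ difference of the actin control probe sets, a measure of 3′ bias, was 0.168 to 0.237 in ischemic rats against 0.0582 to 0.073 in control rats. The BAM marker Cd163 stood at 14.11, 14.02 and 13.38 in the ischemic rats, and at 12.63, 13.86 and 13.41 in the control rats, and of 12 BAM markers tested none was higher and 2 were lower. Cd163 was among 3 BAM markers above 0, beside 9 below 0 (6 of them at an unadjusted p under 0.05), with a median of -0.76, and their mean level was 12.81, 12.49 and 12.25 in ischemic rats against 12.55, 13.55 and 13.44 in control rats. Of 8 monocyte markers tested, 6 were higher, and their mean level was 11.54 to 12.59 in ischemic rats against 8.86 to 9.59 in control rats. Of 5 granulocyte markers tested, 2 were higher (mean level of the 7 measured 7.80 to 8.63 against 6.74 to 7.13), and Camp and Mmp8 were too dim to be tested. Of 7 oligodendrocyte markers tested, 3 were lower (mean level of the 8 measured 7.87 to 8.77 against 9.22 to 10.53). Endothelial markers stood apart in control rat 63, at 9.94 against 7.22 and 7.77 in the other controls and 7.65 to 7.94 in ischemic rats. The part of these differences in the results below was not tested.

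The ULK1 complex receives the signals of the nutrient-sensing kinase mTORC1 and of AMPK, and is the first to act. Its catalytic subunit Ulk1 had log2 values of 9.48, 8.67 and 9.31 in the ischemic rats 64, 65 and 66, and of 10.66, 10.96 and 11.02 in the control rats 63, 68 and 69. All 3 ischemic rats lay more than 1 log2 unit below every control. Means were 9.15 ± 0.43 in ischemic and 10.88 ± 0.19 in control rats (SD, n = 3 each), and Ulk1 fell by 1.73 on the log2 scale (SE 0.22, adjusted p = 0.00109). A second probe set of Ulk1 gave 8.36, 7.86 and 8.21 in ischemic rats, and 9.28, 9.80 and 9.68 in control rats. It also fell, by 1.45 on the log2 scale (adjusted p = 0.00117 in a fit over 14083 probe sets). Of the members, Ulk1 was the 1 whose call held whichever rat was left out, with adjusted p at most 0.0066. The related kinase Ulk2, which can stand in for ULK1, had values of 9.84, 9.26 and 9.07 in ischemic rats, and 10.57, 10.93 and 10.96 in control rats. The groups did not overlap, and Ulk2 fell by 1.43 (SE 0.22, adjusted p = 0.00197), a call that missed the threshold without control rat 68 (adjusted p = 0.0106).

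The other subunits of the ULK1 complex did not pass the test. Atg101, which binds and stabilizes ATG13, had values of 9.07, 9.01 and 9.41 in ischemic rats against 7.88, 8.58 and 8.67 in control rats. Its difference was the largest above 0 of any member, 0.79 (SE 0.23, adjusted p = 0.0254), and the lowest control value came from rat 63. With ribosomal centring it was 0.36 (adjusted p = 0.213, the highest over the settings with limma's moderation, which began at 0.018). Rb1cc1, the scaffold FIP200, was at -0.28 (adjusted p = 0.108), and the adaptor Atg13 at 0.16 (adjusted p = 0.412). Within 1 complex, the kinase subunits were thus lower while the differences of the regulatory subunits lay between -0.28 and 0.79.

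**Figure D2:**
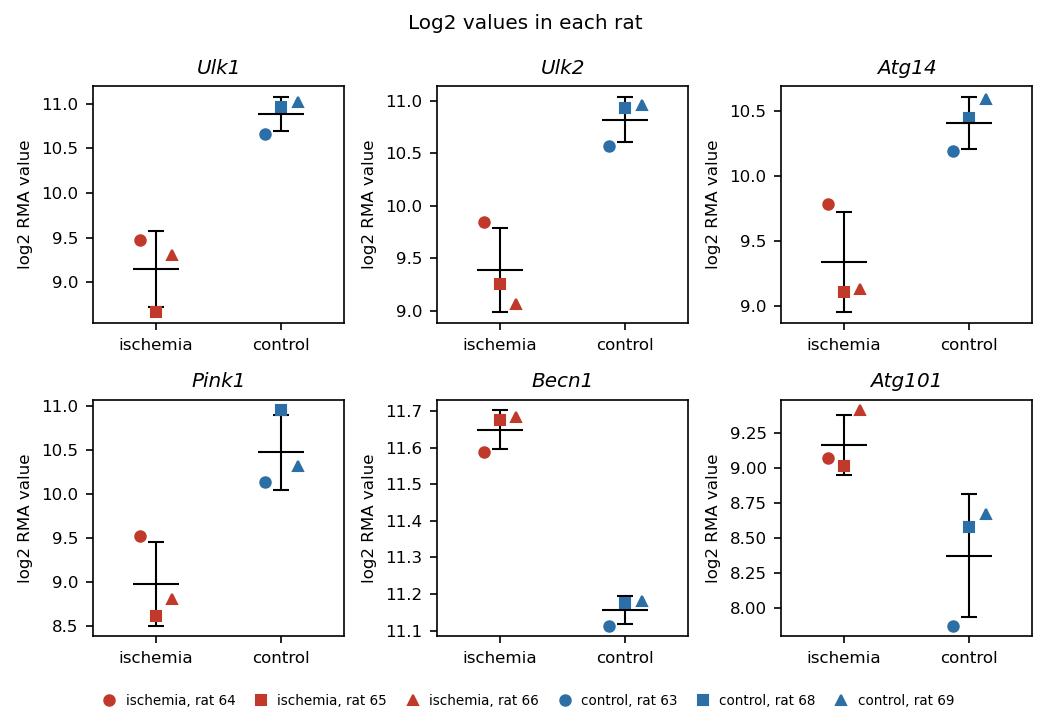
Log2 values (y axis, its own range in each panel) in the 3 ischemic rats (left) and the 3 control rats (right) for the 4 members called lower and for Becn1 and Atg101, with mean and SD as horizontal lines and bars. For Ulk1, Ulk2, Atg14 and Pink1 every ischemic rat lies below every control rat, with rat 64 the highest of the ischemic rats, and for Becn1 and Atg101 every ischemic rat lies above.

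The class III PI3-kinase complex makes PI3P. Atg14, the subunit that sets the complex to autophagosome formation, had values of 9.78, 9.11 and 9.13 in ischemic rats, and of 10.19, 10.45 and 10.59 in control rats. The groups did not overlap, and rat 64 lay nearest to the controls. Atg14 fell by 1.07 on the log2 scale (SE 0.21, adjusted p = 0.00534). The call was kept without rat 64 (adjusted p = 0.00105). It was lost without any 1 of rats 65, 66, 63, 68 or 69 (adjusted p = 0.0116 to 0.0241). Leaving out 1 of those rats also cut the share of all genes called, from 22.8% to between 8.53% and 14%. The call of Atg14 was also lost without the filter on dim genes (adjusted p = 0.0101). Becn1, which encodes the scaffold Beclin 1, had values of 11.59, 11.68 and 11.68 in ischemic rats, and of 11.11, 11.18 and 11.18 in control rats. These groups did not overlap and varied little within themselves, but the difference of 0.49 (SE 0.12) missed the threshold at an adjusted p of 0.0114. Becn1 was called higher under 6 other settings (adjusted p = 0.00294 to 0.00957), while under ribosomal centring its difference was 0.06 (adjusted p = 0.843), or 0.26 (adjusted p = 0.106) when rat 63 was left out as well. The lipid kinase Pik3c3 (VPS34) was at 0.01, its regulatory subunit Pik3r4 (VPS15) at -0.16 and Uvrag, the subunit that replaces ATG14 in the endosomal form of the complex, at -0.23, with adjusted p of 0.248 or above. Of the 6 members of this group, 1 was called lower and none higher, beside 5.99% and 16.8% of all genes. At an unadjusted p under 0.05, 1 was higher, beside 32.3% of all genes.

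Ambra1, a regulator of Beclin 1 and ULK1, differed in sign between its probe sets. The first gave 8.83, 8.55 and 8.47 in ischemic rats, and 8.82, 9.15 and 8.90 in control rats (difference -0.34, adjusted p = 0.106). The second gave 8.02, 7.77 and 7.72 in ischemic rats, and 7.61, 7.87 and 7.87 in control rats (difference 0.06, adjusted p = 0.776). The groups overlapped in both, and neither passed the test.

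Of the members that act on mitochondria, Pink1 was lower. Its values were 9.52, 8.61 and 8.80 in ischemic rats, and 10.14, 10.95 and 10.32 in control rats. Again the groups did not overlap, with rat 64 the highest of the ischemic rats. Pink1 fell by 1.49 (SE 0.28, adjusted p = 0.00469). The spread between rats was wider than for Ulk1, with SDs of 0.48 in ischemic and 0.43 in control rats, and the adjusted p was 0.0107 to 0.0192 without any 1 of rats 65, 66, 63, 68 or 69, and 0.0102 without the filter on dim genes. Fundc1, an outer-membrane receptor that binds LC3 in hypoxia, had values of 7.98, 7.85 and 7.66 in ischemic rats, and of 8.35, 8.62 and 8.33 in control rats. Every ischemic value lay below every control value, and the difference of -0.60 (SE 0.15) missed the threshold at an adjusted p of 0.0133. It passed it with ribosomal centring (-1.03, adjusted p = 0.00456), with a repeated quantile normalization (-0.64, adjusted p = 0.00599) and with array weights (-0.58, adjusted p = 0.00449), and over all moderated settings the adjusted p was at most 0.0544.

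Rat 64 was the highest of the ischemic rats for all 4 members called lower, as for 497 of the 595 genes called lower over the array (83.5%). The median deviation of these 4 members from the control mean was -0.97 in rat 64, -1.71 in rat 65 and -1.62 in rat 66. In the same order, the mean level of the monocyte markers, Vcan, Fn1 and Cd44 among them, was 11.54, 12.37 and 12.59. It too was nearest to the controls in rat 64. By flow cytometry, the study found that most blood-derived myeloid cells entering the brain early after ischemia lacked the marker used for sorting. It also reports some granulocytes among the cells sorted from ischemic brain. The study checked the purity of the sort in separate experiments. Whether monocytes were among the cells on these arrays, and whether they had a part in the 4 falls, was not tested. Without rat 64 the same 4 members were called.

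The promoters of the 4 genes that fell were read from RefSeq on the rat build GRCr8, as windows from 250 bases before to 50 bases after the annotated start, to set the members called beside a sequence feature that the choice of members did not use. The motif searched was CACGTG, the core of the element bound by TFEB and its relatives, regulators of lysosome and autophagy genes, which reads the same on both strands. It was found in 2148 of 33469 promoters (6.42%), in 4 of the 31 members with a window (12.9%), namely Atg14, Pink1, Atg3 and Atg5, and in 2 of the 4 called lower. The 33469 are all windows of the promoter set, whereas each member was counted by 1 window, so these shares were counted unlike. The Atg14 window (chr15:23306766-23307065, minus strand) held 1 copy after the start, and the Pink1 window (chr5:155825901-155826200, minus strand) held 2 copies before it. Both are given 5′ to 3′ with the motif in capitals, since the called members differ in this feature. The windows of Ulk1 and Ulk2 hold no copy.
Atg14: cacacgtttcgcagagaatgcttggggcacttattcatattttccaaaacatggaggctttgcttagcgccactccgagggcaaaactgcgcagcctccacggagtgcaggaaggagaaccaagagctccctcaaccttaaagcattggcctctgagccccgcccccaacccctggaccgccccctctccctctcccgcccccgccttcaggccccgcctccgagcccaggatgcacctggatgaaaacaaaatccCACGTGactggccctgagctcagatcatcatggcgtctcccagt
Pink1: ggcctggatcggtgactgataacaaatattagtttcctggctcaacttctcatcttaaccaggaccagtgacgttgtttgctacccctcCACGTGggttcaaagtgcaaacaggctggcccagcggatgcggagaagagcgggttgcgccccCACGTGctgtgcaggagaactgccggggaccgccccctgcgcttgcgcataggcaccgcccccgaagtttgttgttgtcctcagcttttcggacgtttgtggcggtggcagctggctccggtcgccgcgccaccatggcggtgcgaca

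Proteins that supply membrane or read PI3P showed no call. Vmp1, a membrane protein of the endoplasmic reticulum needed for autophagosome growth, was at 0.01 (adjusted p = 0.958), and the PI3P readers Wipi1 and Wipi2 were at -0.10 and 0.27 (adjusted p = 0.653 and 0.367). Atg2a, which carries lipids to the growing membrane, did not overlap between groups, with 9.17, 8.82 and 9.30 in ischemic rats against 9.62, 9.69 and 9.77 in control rats. Its difference was -0.60 (SE 0.15, adjusted p = 0.0166), and it was called lower with ribosomal centring, repeated quantile normalization and array weights (adjusted p = 0.00514, 0.00604 and 0.00346), with at most 0.0707 over all moderated settings. The scramblase Atg9a, which works with ATG2, was at -0.39 (adjusted p = 0.0688). At an unadjusted p under 0.05, 2 of the 5 members of this group were lower and none higher, beside 18.2% and 32.3% of all genes.

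None of the 8 members that conjugate or process ATG8 proteins was called, and at an unadjusted p under 0.05, 2 were higher and 2 lower, beside 32.3% and 18.2% of all genes. Atg7, the E1-like enzyme that both conjugation reactions need, was read by 3 probe sets. The first had values of 10.28, 10.35 and 10.68 in ischemic rats, and of 10.13, 10.00 and 9.82 in control rats (difference 0.46, adjusted p = 0.047). The other probe sets gave differences of 0.56 (adjusted p = 0.0289) and 0.67 (adjusted p = 0.00987), so that 1 of 3 passed the threshold, although in all 3 every ischemic rat lay above every control rat. The probe set past the threshold read 10.10, 10.41 and 10.56 in ischemic rats against 9.61, 9.71 and 9.74 in control rats. With ribosomal centring the first gave 0.03 (adjusted p = 0.942, against 0.0105 at the lowest over the moderated settings). The protease Atg4d, which trims ATG8 proteins, was at 0.42 (adjusted p = 0.058), and its relative Atg4b at 0.19 (adjusted p = 0.275). The E2-like enzyme Atg3 was at 0.17 (adjusted p = 0.296), the conjugate partners Atg5 and Atg12 at 0.20 and 0.06 (adjusted p = 0.249 and 0.708). The remaining members of the group lay below 0, with Atg16l1, which places the conjugate on the membrane, at -0.50 (adjusted p = 0.0584) and Atg10, the E2-like enzyme for ATG12, at -0.40 (adjusted p = 0.0977).

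In the ATG8 family no measured member was called, none reached an unadjusted p under 0.05 in either direction, and none of the 3 separated the groups. Map1lc3a, which encodes LC3A, had values of 10.29, 10.18 and 10.26 in ischemic rats, and of 10.29, 10.41 and 10.22 in control rats. Its difference of -0.06 had a 95% interval of -0.34 to 0.22. Gabarapl1 had values of 8.75, 8.67 and 9.01 in ischemic rats, and of 8.85, 9.29 and 9.63 in control rats. Its groups overlapped in this probe set (-0.45, adjusted p = 0.115) and in a second (-0.27, adjusted p = 0.442), while with ribosomal centring it was called lower (-0.88, adjusted p = 0.00749, against 0.432 at the highest over the moderated settings).

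The probe sets of Gabarap disagreed. The brighter had values of 13.21, 13.55 and 13.45 in ischemic rats, and of 12.96, 13.51 and 13.37 in control rats, a difference of 0.12 (adjusted p = 0.608). The dimmer had values of 8.81, 9.36 and 9.20 in ischemic rats, and of 7.74, 8.16 and 7.10 in control rats. Here the groups did not overlap and the value rose by 1.46 (SE 0.27, adjusted p = 0.00427). The deposited annotation does not say which part of the transcript either reads.

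**Figure D3:**
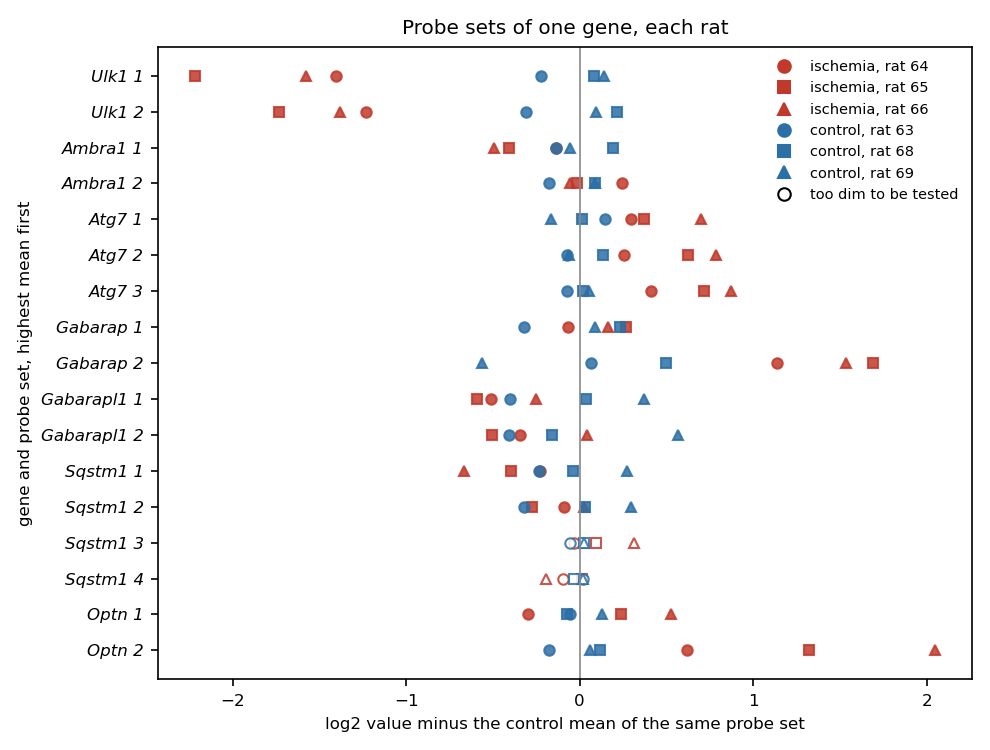
Log2 value minus the control mean of the same probe set (x axis) in each rat, for the probe sets (y axis, highest mean first) of 7 members, with open symbols for probe sets too dim to be tested. The groups are separated in both probe sets of Ulk1 and all 3 of Atg7, in the second but not the first of Gabarap and of Optn, and in none of Ambra1, Gabarapl1 and Sqstm1 that was tested.

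None of the 3 cargo receptors measured was called, and at an unadjusted p under 0.05, 1 was lower and none higher, beside 18.2% and 32.3% of all genes. Sqstm1, which encodes p62, the receptor that brings ubiquitinated cargo to LC3 and is itself degraded by autophagy, had values of 11.02, 10.86 and 10.58 in ischemic rats, and of 11.02, 11.21 and 11.52 in control rats. Rat 64 and control rat 63 were level, and the difference was -0.43 (SE 0.18, adjusted p = 0.0856). A second probe set gave 10.40, 10.22 and 10.51 in ischemic rats, and 10.17, 10.52 and 10.78 in control rats (difference -0.11, adjusted p = 0.645). Its other probe sets were too dim to be tested, with means of 6.14 and 5.60 in ischemic rats, and of 6.02 and 5.69 in control rats. Optn, a ubiquitin-binding receptor used in mitophagy, was at 0.16 (adjusted p = 0.571) in its first probe set, with 7.53, 8.07 and 8.36 in ischemic rats against 7.77, 7.75 and 7.96 in control rats. Its second had values of 7.44, 8.14 and 8.87 in ischemic rats, and of 6.65, 6.94 and 6.88 in control rats. That difference, 1.33 (SE 0.32), missed the threshold at an adjusted p of 0.012, with rat 66 the highest and rat 64 the lowest ischemic value. The receptor Tax1bp1 was at 0.12 (adjusted p = 0.549). Stx17, the SNARE protein that fuses the autophagosome with the lysosome, was at -0.19 (adjusted p = 0.483), with overlapping groups.

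Other genes of the pathway were read from 4 lists. Of 17 further genes of the autophagosome machinery, none was called higher and 6 were called lower (35.3%), beside 16.8% and 5.99% of all genes. At an unadjusted p under 0.05, 1 was higher, beside 32.3% of all genes. The median log2 fold change was -0.47 beside 0.10 over all genes. The largest falls were those of Calcoco1, a receptor for the endoplasmic reticulum (-1.63, adjusted p = 0.00136), and of Rubcn, which encodes the PI3-kinase inhibitor Rubicon (-1.11, adjusted p = 0.00412, and 0.0147 to 0.0185 without rat 65, 66, 68 or 69). The others were Zfyve1, which encodes a PI3P-binding protein of the sites where autophagosomes form, the ferritin receptor Ncoa4, the ATG16L1 relative Atg16l2 and the WIPI family member Wdr45, at -1.01 to -0.85. Without rat 65, 66 or 68, 2 to 3 of the 17 were called lower, beside 166 to 227 of all 9928 genes (595 with all rats). The 6 genes thus included an inhibitor, Rubcn, beside genes that serve the forming membrane or bring cargo. Of its uncalled genes of highest mean, Wdr45b was at 0.15 and Retreg1 at -0.47.

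Of 20 further mitophagy genes, 7 were called higher (35%) and none lower, beside 16.8% and 5.99% of all genes. At an unadjusted p under 0.05, 2 were lower, beside 18.2% of all genes, and the median was 0.46. The largest rises were those of Fundc2, a relative of Fundc1 in the outer membrane (1.27, adjusted p = 0.00143), and of the mitochondrial phosphatase Pgam5 (1.21, adjusted p = 0.00103). The others were the outer-membrane channel Vdac1, the fusion proteins Opa1 and Mfn2, the import receptor Tomm20 and the inner-membrane protein Phb2, at 0.70 to 1.07. All of these are constituents of mitochondria or of their fusion that also serve outside mitophagy. After median centring and after repeated quantile normalization 7 of the 20 were again called higher, whereas with ribosomal centring none was, Fundc2 being at 0.85 (adjusted p = 0.014) and Pgam5 at 0.79 (adjusted p = 0.0225). With ribosomal centring and without rat 63, 1 of the 20, Pgam5, was called higher (0.998, adjusted p = 0.00882). With the mean of a gene's probe sets, 5 of the 20 were called higher. Fundc2, Phb2 and Opa1 then missed the threshold (adjusted p = 0.0135, 0.0131 and 0.0117), while Dnm1l passed it (adjusted p = 0.00839). Opa1 also missed it with the probe set of largest variance (adjusted p = 0.0247) and without the filter on dim genes (adjusted p = 0.0103). Without rat 65, 66, 63 or 68, 2 to 4 of the 20 were called higher, beside 681 to 1110 of all 9928 genes (1664 with all rats). The uncalled genes of highest mean, Tomm7 and Park7, were at 0.26 and 0.33. The hypoxia-responsive receptors Bnip3 and Bnip3l, chosen after their values were seen, were at 0.80 (adjusted p = 0.0392) and -0.68 (adjusted p = 0.0161). Neither was called in the main test. Bnip3l was called lower with ribosomal centring, repeated quantile normalization and array weights (adjusted p = 0.00211, 0.00434 and 0.00159). Its adjusted p reached 0.0685 with 1 rat left out.

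Of 18 genes of the fusion of autophagosomes with lysosomes, 1 was called lower, 5.56% beside 5.99% of all genes. It was the endosomal SNARE Stx7 (-0.81, adjusted p = 0.00234, and 0.0156 and 0.0118 without rats 65 and 66). None was called higher, beside 16.8% of all genes, and 3 were higher at an unadjusted p under 0.05, beside 32.3%. The lysosomal membrane genes Lamp1 and Lamp2, those of highest mean, were at -0.21 and -0.19 (adjusted p = 0.515 and 0.419), and the median of the list was 0.08.

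Of 33 genes that control autophagy through mTORC1, AMPK and TFEB, 2 were called higher and 4 lower, 18.2% of the list beside 22.8% of all genes, with a median of -0.04. The genes that rose were Ddit4, a hypoxia- and stress-induced inhibitor of mTORC1 (1.12, adjusted p = 0.00171), and Lamtor3, a subunit of the Ragulator complex that anchors mTORC1 at the lysosome (0.69, adjusted p = 0.00606). Neither was called with ribosomal centring (adjusted p = 0.0493 and 0.397), and Lamtor3 was also not called after repeated quantile normalization (adjusted p = 0.014) or without any 1 of rats 65, 66, 63, 68 or 69 (adjusted p = 0.0156 to 0.0338). The largest falls were those of Deptor, an inhibitor of mTOR (-2.57, adjusted p = 0.00134), and of Sesn1, a leucine sensor that restrains mTORC1 (-2.02, adjusted p = 0.00127). Rragd, a Rag GTPase, and Sesn3 were also lower, at -1.93 and -1.03. Rragd was not called without rat 65, 66, 68 or 69 (adjusted p = 0.0208 to 0.0248), nor Sesn3 without rat 65, 63 or 68 (adjusted p = 0.0115 to 0.0123). Inhibitors of mTORC1 were thus found on both sides. The uncalled genes of highest mean were Rheb, at 0.28, and Fnip2, at -0.08. The genes of TFEB and its relatives, chosen after their values were seen, were not called in the main test. Tfeb was at 0.04 (adjusted p = 0.816), Tfe3 at -0.65 (adjusted p = 0.014) and Mitf at 1.14 (adjusted p = 0.0122). Tfe3 was called lower with ribosomal centring, repeated quantile normalization, trend and robust moderation, array weights and without rat 63 (adjusted p = 0.00182 to 0.00947). Mitf was called higher with the 60th percentile filter, array weights and without rat 64 (adjusted p = 0.000971 to 0.00773). With 1 rat left out, their adjusted p reached 0.0544 and 0.0457. Which factors bind the motif above in these cells was not tested.

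**Figure D4:**
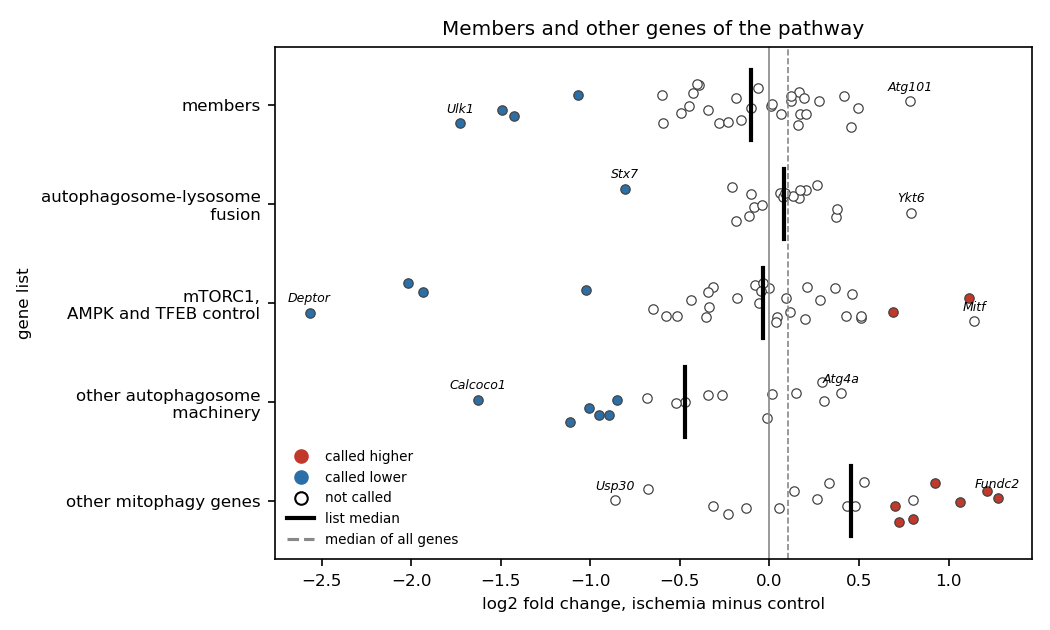
Log2 fold change (ischemia minus control, x axis) of each gene tested in the members and in 4 lists of other pathway genes (y axis, points spread vertically for legibility), coloured by call, with the list median as a black bar and the median of all genes tested as a dashed line. The medians are -0.10 for the members, 0.08 for fusion, -0.04 for mTORC1, AMPK and TFEB control, -0.47 for the other machinery and 0.46 for the other mitophagy genes, and the lowest and highest gene of each list are named.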

How the data were processed

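RNA of the sorted cells of 6 rats, 1 array each, was studied. The authors amplified it with a 3′ kit and normalized the arrays with RMA, and the deposited values are log2 values per probe set; the authors' processing notes name limma 3.18 and R 3.3.1. All 31099 probe sets are in the table, 57 of them controls, and 20826 name 1 gene, 436 several and 9780 none. Gene symbols came from the platform annotation, and 20758 of the 20826 were found in RefSeq by gene ID.

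From these values, the brightest probe set of each gene was taken, and genes with fewer than 3 arrays above 7.16, the 40th percentile, were dropped. The groups were compared with limma 3.58.1 in R 4.3.3 (lmFit, then eBayes), two-sided, with Benjamini-Hochberg adjustment over 9928 genes, as the study's methods describe, except for their filter on low variability, which was not applied. Calls used an adjusted p under 0.01, without the fold threshold of the study. Intervals are 95% intervals of single genes. Of the 33 members measured, none had both group means at or below 7.42, the 90th percentile of 27 genes of other tissues. The members and lists were chosen with earlier results of these data known. Values in every rat were given for members called, the ATG8 family, Sqstm1, Pink1, Becn1 and Ulk1 and members whose probe sets differ in sign or call. Those of Atg101, Fundc1, Atg2a and Optn were added after their values were seen. From each list of other genes, the called genes and up to 2 uncalled genes of highest mean were named. In data simulated for this comparison on 9928 genes, limma found 0 of 50 genes with a change of 0.5 log2 units, 21 of 50 with 1, 47 of 50 with 2 and 50 of 50 with 4. It made 2 false calls over 9728 unchanged genes. Fewer genes were changed in the simulation than the 22.8% called in the data. Arrays give no read depth, and the number of rats limits the precision.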

Additional observations from a re-analysis of the deposited data

How the results depend on the processing

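Among single members, the call was the same in 303 of 324 combinations of a member with another scaling, filter, probe set rule or model. There 6 calls were lost, without moderation or without the filter on dim genes, and 15 gained. With 1 rat left out it was the same in 187 of 198, and 11 calls were lost. Most combinations are of the 29 uncalled members, and only the 4 called members could lose a call. The 11 losses were those of Atg14 and Pink1, each without any 1 of rats 65, 66, 63, 68 or 69, and of Ulk2 without rat 68. Without any 1 of these rats, 8.53% to 14% of all genes were called and 166 to 379 were lower. With all rats the figures were 22.8% and 595. The log2 fold change with 1 rat left out was -1.291 to -0.9525 for Atg14 and -1.765 to -1.254 for Pink1. No called member changed sign. Against 0 members called higher, 1 was called without the filter on dim genes, with a filter at the 60th percentile, with the mean of a gene's probe sets, with the probe set of largest variance, after median centring, with trend and robust moderation and with array weights, and 3 at an adjusted p under 0.05. Against 4 called lower, 2 were called without the filter, 7 with ribosomal centring and 7 with array weights. Over all genes, 1664 were called higher and 595 lower, beside 1469 and 436 without the filter. Ribosomal centring gave 397 and 1360, and array weights 2374 and 1309, or 37.1% of all genes. The array weights leaned on rat 65, with a weight of 4.9 against 0.405 to 1.31 in the other rats. Leaving out 1 rat gave 0 members higher and 1 to 4 lower, beside 681 to 1564 and 166 to 816 of all genes. The members' median of -0.10 was -0.53 with ribosomal centring and -0.23 with repeated quantile normalization, and -0.16 to -0.04 with 1 rat left out. Ribosomal centring without control rat 63, added after seeing the data, gave 0 members higher and 2 lower with a median of -0.25, 1 mitophagy gene higher and 0 genes of mTORC1, AMPK and TFEB control higher.

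Without moderation limma called 0 of 9928 genes, hence 0 members and 0 genes of each list. With a log2 fold change beyond 2 as well, 220 genes (2.22%) were called, none of them a member. Of these, 2 were lower genes of mTORC1, AMPK and TFEB control, and the other list counts were 0. The study reports many more genes at the thresholds it gives, which are the same, and the reason for the difference was not tested. Of the other machinery genes, 6 of which were lower, 1 was higher at an adjusted p under 0.05, and 2 to 8 were lower with 1 rat left out. Of the other mitophagy genes, 7 of which were higher, 0 were higher with ribosomal centring, 11 at an adjusted p under 0.05 and 2 to 7 with 1 rat left out. Lower mitophagy genes numbered 1 with the probe set of largest variance and with repeated quantile normalization, 2 with ribosomal centring, with array weights and at an adjusted p under 0.05, and 0 to 1 with 1 rat left out. Of the fusion genes, 1 was higher with array weights and at an adjusted p under 0.05, 0 to 1 were higher and 0 to 1 lower with 1 rat left out. Of the mTORC1, AMPK and TFEB genes, 2 of which were higher and 4 lower, higher genes numbered 0 with ribosomal centring, 1 with repeated quantile normalization, 5 with array weights, 7 at an adjusted p under 0.05 and 1 to 3 with 1 rat left out; lower genes numbered 7 with ribosomal centring, 7 with array weights, 7 at an adjusted p under 0.05 and 2 to 4 with 1 rat left out. The cause of these changes was not tested, apart from the stricter or looser thresholds themselves.

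No paired analysis was possible because the ischemic and control rats share no replicate numbers. With 3 rats a group, 0 of 50 changes of 0.5 log2 units were recovered in simulated data, where 9728 of 9928 genes were unchanged. In the data 22.8% of genes were called, which eases the adjustment, so the simulation does not give the limit here. A change near 0.5 in an uncalled member can be missed. Becn1, at 0.49, had an adjusted p of 0.0114 and was called under some other settings. All arrays of a group were of separate rats, and neither dates nor batches were used here. Values of 1 probe set cannot be set against those of another.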
